A study of Mus musculus with 15 samples.

Results

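Gene expression was compared among 4 shPCBP1 cell lines that carry no knockout, the unaltered shPCBP1 line and its 3 control (CT) clones. They are 4 of the 15 RNA-Seq samples of the series. Of the 13893 genes in the table of the first dataset, the 12638 with a mean over the 4 lines of 0.5 CPM or more (CPM, a read count scaled to the size of its library) were described, by the range of log2(CPM + 0.1) from the lowest to the highest line. A gene was called wide-range where that range was at least 2, a 4-fold difference between the extreme lines, and 293 genes met this limit.

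All 4 lines derive from NMuMG, a mouse mammary gland epithelial line, are labelled wild type in genotype and share an shRNA knockdown of PCBP1. The CT clones came from shPCBP1 cells that were given Cas9 but no guide RNA against a gene. Serial dilution is described in the methods for the knockout colonies, and how the CT clones were picked is not given in the sources used here. The other lines of the first dataset are 3 clones with a FAM3C KO, 3 with a LIFR KO and 1 double KO, all on the same knockdown. The second dataset holds 2 replicates of shPCBP1 cells and 2 of NMuMG cells that are labelled as untreated and that the study calls shSCR, a scrambled shRNA. Each line of the first dataset was sequenced as 1 library, so the spread among the 4 lines has no replicate error and no test was made on it.

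PCBP1 encodes a protein that binds RNA and DNA and controls splicing, translation and stability of messages, and its loss moves mammary epithelial cells towards a mesenchymal state. A clone is grown from a single cell, so a gene that is on or off in that cell, and a change in its chromosomes, can pass to the whole line, whereas an uncloned line averages many cells. Control clones are therefore used to show how far lines differ before any gene is removed.

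No gene was listed at 0, and the lowest value of each library was taken as 1 read added to a count of 0, an offset that the sources used here do not state. On that assumption the libraries held 16031859 reads in the unaltered line, 46901675 in CT clone 1, 24747085 in CT clone 2 and 29106997 in CT clone 3. At these depths 3 reads were worth 0.187 CPM in the unaltered line and 0.0640 to 0.121 CPM across the CT clones, so levels within that of the lowest value were not told from 0. These limits cover counting error only. Mitochondrial genes took 3.14% to 3.96% of the 4 libraries. They took 7.16% to 8.58% in LIFR KO clones 2 and 3 and the double KO, whose values also followed the GC content of the genes (Spearman correlation across genes of -0.75 to -0.70 with the difference from the 4 lines).

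Epithelial keratin and junction genes and mesenchymal genes were both expressed in the 4 lines. The luminal keratin Krt8 stood at 743 CPM in the unaltered line and 582, 818 and 616 CPM across CT clones 1 to 3, and the adherens junction cadherin Cdh1 at 295 CPM and 346, 299 and 292 CPM. Vim, a mesenchymal intermediate filament, stood at 1351 CPM and 1295, 1336 and 1443 CPM. Of the other luminal markers, Krt18 and Krt19 lay at 715 to 1038 CPM. Elf5 and Aldh1a3 lay at only 0.275 to 0.647 CPM, and Esr1 and Pgr were not listed. Summed over the marker lists, luminal genes reached 2158 to 2903 CPM and basal genes 62.3 to 72.2 CPM. Fibroblast genes reached 3.13 to 6.61 CPM, endothelial genes 2.74 to 3.54 CPM, immune genes 10.7 to 13.2 CPM and adipocyte genes 0.687 to 1.87 CPM. The knockdown itself was even, with Pcbp1 at 37.1 CPM in the unaltered line and at 34.4, 36.5 and 32.9 CPM across the CT clones. The range of Pcbp1 was 0.17 (log2).

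Most genes differed little among the 4 lines, and the median range was 0.29 (log2). A range of at least 1, a 2-fold difference, was seen for 1041 genes (8.24%), of at least 2 for 293 (2.32%), of at least 4 for 51 and of at least 6 for 8. Agmo and Lrfn1 lay just inside the limit with ranges of 2.00 each, and Srgap1 and Zfp647 just outside with 1.99 and 2.00. The share of wide-range genes followed the level. It was 10.1% between 0.5 and 1 CPM, 11.5% between 1 and 2 CPM, 6.82% between 2 and 5 CPM, 1.91% between 5 and 20 CPM and 0.11% (8 of 7253 genes) at 20 CPM and over. At a mean of at least 5 CPM, 63 of 10136 genes (0.622%) were wide-range.

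**Figure D1:**
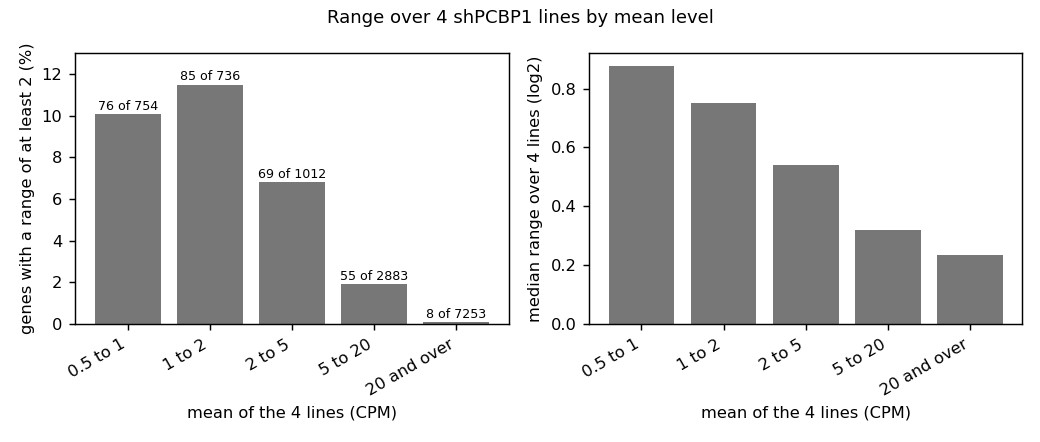
Percentage of genes with a range of at least 2 (left) and median range in log2 (right) over the 4 shPCBP1 lines, by mean level in CPM. Bars carry the number of wide-range genes of the genes tested, and the percentage goes from 10.1% between 0.5 and 1 CPM to 0.11% at 20 CPM and over.

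Compared in pairs, the unaltered line and CT clone 2 were the closest, with a median absolute difference of 0.12 (log2) and 346 genes at least 2-fold apart. The unaltered line and CT clone 3 were the farthest by the number of such genes, 502, with a median of 0.18. Values of CT clone 3 were also higher as a whole, by a median of 0.0724 (log2) from the mean of the other lines. For the unaltered line and CT clones 1 and 2 this median was -0.0391 to -0.00758. The pairs were not rescaled for this offset, which enters each pair with CT clone 3. CT clone 3 was also the far member of its pairs with CT clone 1 (423 genes) and CT clone 2 (480 genes), while CT clones 1 and 2 differed for 395 genes and the unaltered line and CT clone 1 for 365. The unaltered line was thus no farther from CT clones 1 and 2 than these clones were from each other.

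In 31 of the 12638 genes tested, called switched here, at least 1 line was below 0.5 CPM while another was at 5 CPM or more. Of the 31, 19 were low in a single line. CT clone 2 was among the low lines for 18 of the 31, CT clone 1 for 16, CT clone 3 for 10 and the unaltered line for 5. To show the kind of upstream sequence involved, the promoter windows of a gene lost in CT clone 3, of a gene gained in CT clone 1 and of a gene absent from all 3 CT clones are printed below. They are the RefSeq windows of 300 bases (250 before to 50 after the start, GRCm38.p6), read 5′ to 3′ on the strand of the gene, with CG dinucleotides in capitals: Adcy1 at chr11:7063183-7063482 on the plus strand, Luzp2 at chr7:54834995-54835294 on the plus strand and Serpinh1 at chr7:99353190-99353489 on the minus strand.
Adcy1: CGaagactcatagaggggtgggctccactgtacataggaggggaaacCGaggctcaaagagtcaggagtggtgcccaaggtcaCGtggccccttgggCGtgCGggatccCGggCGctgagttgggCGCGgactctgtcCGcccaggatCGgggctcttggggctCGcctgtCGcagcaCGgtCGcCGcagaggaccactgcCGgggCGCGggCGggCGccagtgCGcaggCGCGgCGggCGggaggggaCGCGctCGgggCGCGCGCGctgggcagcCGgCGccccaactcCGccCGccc
Luzp2: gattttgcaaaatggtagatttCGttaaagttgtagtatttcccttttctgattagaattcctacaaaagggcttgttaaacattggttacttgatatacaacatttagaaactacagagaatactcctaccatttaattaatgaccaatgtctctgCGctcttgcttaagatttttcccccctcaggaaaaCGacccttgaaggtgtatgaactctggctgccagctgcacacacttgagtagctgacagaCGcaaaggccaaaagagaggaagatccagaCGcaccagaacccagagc
Serpinh1: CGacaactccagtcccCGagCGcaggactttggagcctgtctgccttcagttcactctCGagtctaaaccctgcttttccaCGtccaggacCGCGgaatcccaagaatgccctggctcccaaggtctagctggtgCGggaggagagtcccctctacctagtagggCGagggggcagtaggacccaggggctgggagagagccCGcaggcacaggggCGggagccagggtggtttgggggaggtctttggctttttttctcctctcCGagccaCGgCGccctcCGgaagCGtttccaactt
The windows held 37, 5 and 16 CG dinucleotides. Among the 25 switched genes with a window in the table the number ran from 0 to 40, and 43.6% of all 32851 windows of the table, which include those of genes not expressed in these lines, held 5 or fewer. Nothing is read from these numbers.

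Adcy1, a calcium-stimulated adenylyl cyclase (ENSMUSG00000020431, chromosome 11, 7063489 to 7178506, GRCm38), had the widest range of all, 8.22 (log2). It stood at 20.3 CPM in the unaltered line, 0.576 CPM in CT clone 1, 39.9 CPM in CT clone 2 and 0.0344 CPM in CT clone 3, which is the value for no reads. The gene was thus on in 2 lines, low in CT clone 1 and without reads in CT clone 3. The 6 FAM3C KO and LIFR KO clones all expressed it, at 17.4 to 77.2 CPM.

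CT clone 1 was the only line below 0.5 CPM for 7 genes (Dlg3, Fhl1, Hoxa7, Ncs1, Scara3, Smoc1 and Zfp37). Scara3, a scavenger receptor (ENSMUSG00000034463, chromosome 14, 65919394 to 65953935), stood at 0.0426 CPM in CT clone 1 and at 13.7, 17.3 and 16.7 CPM in the unaltered line and CT clones 2 and 3. All 6 knockout clones had 9.69 to 18 CPM, so CT clone 1 was alone among these 10 lines in lacking it. Ncs1, a neuronal calcium sensor, stood at 0.0853 CPM in CT clone 1, 23.6 CPM in the unaltered line and 4.28 and 2.92 CPM across CT clones 2 and 3. Smoc1, a secreted calcium-binding matrix protein, stood at 0.426 CPM in CT clone 1 and at 20.9, 24.3 and 27.6 CPM in the other lines. Hoxa7, a homeobox factor of positional identity, stood at 0.120 CPM in CT clone 1 and at 10.9, 7.52 and 8.47 CPM. For Ncs1, Smoc1 and Hoxa7 the FAM3C KO clones and LIFR KO clone 3 were high (5.43 to 47.9 CPM), while LIFR KO clones 1 and 2 were at 0.0416 to 3.49 CPM.

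CT clone 2 was the only line below 0.5 CPM for 8 genes, Btbd11, Mamld1, Mef2c, Plekhg1, Ptk7, Rnf150, Rps6ka6 and Thsd7a. Mef2c, a transcription factor of muscle and other lineages (ENSMUSG00000005583, chromosome 13, 83504034 to 83667080), was at 0.121 CPM in CT clone 2 and at 1.25 CPM in the unaltered line, against 22.3 CPM in CT clone 1 and 19.5 CPM in CT clone 3. It lay between 0.0384 and 1.55 CPM in the 6 knockout clones, so the 2 high CT clones stood above the other 8 lines. Ptk7, a receptor of planar cell polarity, was at 0.485 CPM in CT clone 2 and 4.62, 7.46 and 9.86 CPM in the unaltered line and CT clones 1 and 3. Tmcc2, a transmembrane and coiled-coil protein, was at 0.727 CPM in CT clone 2 and between 5.84 and 8.61 CPM in the other 3 lines.

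CT clone 3 was the only line below 0.5 CPM for Adcy1, Olfr1318 and Zfp467. Tenm4, a teneurin cell surface protein (ENSMUSG00000048078, chromosome 7, 96171246 to 96911093), stood at 1.17 CPM in CT clone 3 and at 57.2, 89.4 and 81.7 CPM in the unaltered line and CT clones 1 and 2. The knockout clones had 30.5 to 153 CPM. Robo1, a receptor for Slit guidance proteins, was at 1.10 CPM in CT clone 3 and 16.7 to 21.6 CPM in the other lines, with 5.16 to 22.1 CPM in the knockout clones. Both genes were thus lower in CT clone 3 than in any other line of the first dataset.

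For 4 of the switched genes a single CT clone was at 5 CPM or more and the other 3 lines were below 0.5 CPM. Genes with a single high line can fail this limit. Plekhg1, listed above as low in CT clone 2, stood at 28.6 CPM in CT clone 3 and at 0.283 to 1.88 CPM in the other 3 lines. Rnf150 stood at 5.95 CPM in CT clone 3 and at 0.202 to 0.661 CPM in the other 3 lines. Luzp2, a leucine zipper protein (ENSMUSG00000063297, chromosome 7, 54835498 to 55268885), stood at 27.4 CPM in CT clone 1 and at 0.187, 0.242 and 0.172 CPM in the unaltered line and CT clones 2 and 3. Nrn1, which encodes neuritin, stood at 7.70 CPM in CT clone 3 and at 0.25, 0.128 and 0.0808 CPM in the unaltered line and CT clones 1 and 2. Gprin3 stood at 5.15 CPM in CT clone 3 and at 0.0404 to 0.107 CPM elsewhere. Padi4, a peptidylarginine deiminase, stood at 7.68 CPM in CT clone 2 and at 0.192 to 0.412 CPM in the other 3 lines. Luzp2 was at or below 0.386 CPM in the 6 knockout clones and Gprin3 at or below 0.129 CPM.

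Serpinh1 and Lrrc32 were expressed in the unaltered line and low in all 3 CT clones. Serpinh1 (ENSMUSG00000070436, chromosome 7, 99345376 to 99353239) encodes a collagen chaperone of the endoplasmic reticulum, and it stood at 11.6 CPM in the unaltered line and at 0.0213, 0.0404 and 0.137 CPM across CT clones 1 to 3. The values of CT clones 1 and 2 are those for no reads. It was also at or below 0.266 CPM in the 6 knockout clones, which leaves the unaltered line as the only line of the first dataset that expressed it. Lrrc32, which docks latent TGF-beta at the cell surface, stood at 5.43 CPM in the unaltered line and at 0.213, 0.323 and 0.240 CPM across the CT clones, and at 0.200 to 9.82 CPM in the knockout clones. The genes lie within 1 Mb of each other on chromosome 7.

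**Figure D2:**
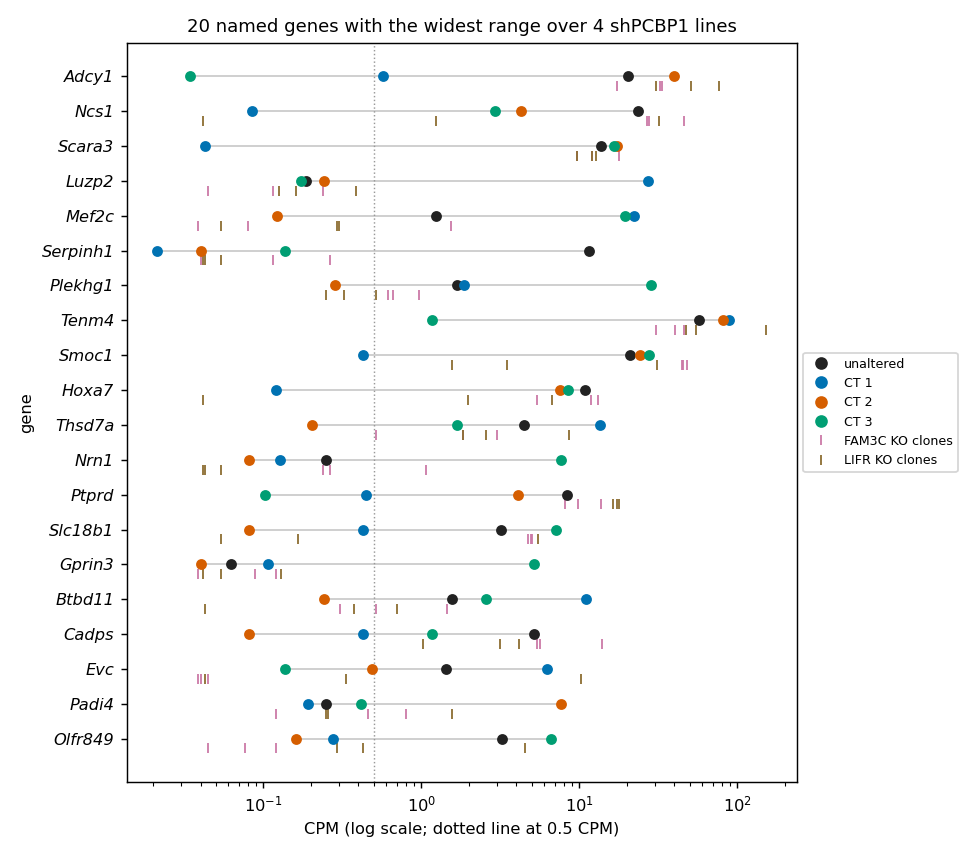
CPM on a log scale of the 20 named genes with the widest range, with filled circles for the unaltered line and for CT clones 1 to 3 and, just below each, for the 3 FAM3C KO and 3 LIFR KO clones (ticks). Adcy1 spans 0.0344 to 39.9 CPM over the 4 lines, and Scara3 is at 0.0426 CPM in CT clone 1 while the other 9 lines lie at 9.69 to 18 CPM.

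Set beside the 6 FAM3C KO and LIFR KO clones, 9 of the 31 switched genes were below 0.5 CPM in 0 of the 6, 7 were in all 6 and 15 in 1 to 5 of them. The same split was not made for other genes, so nothing particular to switched genes is read from these counts. Arhgap32 was at 9.96 CPM in CT clone 1, at 0.312, 0.889 and 0.721 CPM in the unaltered line and CT clones 2 and 3 and at or below 0.0832 CPM in all 6 knockout clones.

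At a mean level of 20 CPM and over, 8 genes were wide-range. They are Tenm4, Ddr2, Klhl13, Lars2, Sall1, Cyfip2, Clmn and Itgb7, and the 7 after Tenm4 were taken for their level after the values were seen. Ddr2, a receptor tyrosine kinase for collagen (ENSMUSG00000026674, chromosome 1, 169972307 to 170110762), stood at 51.2 CPM in the unaltered line and 51.8 CPM in CT clone 3, against 2.37 CPM in CT clone 1 and 8.49 CPM in CT clone 2. The FAM3C KO clones and LIFR KO clone 3 had 139 to 199 CPM and LIFR KO clones 1 and 2 had 17.9 and 4.66 CPM. Klhl13, an adaptor of a Cullin ubiquitin ligase, stood at 2.03 CPM in CT clone 1 and at 43.0, 30.4 and 30.9 CPM in the other lines. Cyfip2, a subunit of the actin-regulating WAVE complex, stood at 7.92 CPM in the unaltered line and at 77.5, 18.5 and 29.6 CPM across CT clones 1 to 3, and was at or below 0.376 CPM in 5 of the 6 knockout clones.

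Lars2, the mitochondrial leucyl-tRNA synthetase, had the highest level among them, with 773 CPM in the unaltered line, 114 CPM in CT clone 1, 1475 CPM in CT clone 2 and 76.2 CPM in CT clone 3. Sall1, a zinc finger factor, stood at 31.2, 12.3, 43.9 and 3.13 CPM in the same order. Clmn, which encodes calmin, stood at 16.3, 6.4, 36.1 and 29.0 CPM. Itgb7, an integrin subunit of lymphocyte homing, stood at 13.4, 7.76, 28.9 and 43.4 CPM. Each of these 4 genes put CT clones 1 and 2 on opposite sides of the unaltered line. The values are of single libraries made after depletion of ribosomal RNA. Whether library preparation had a part in the spread of Lars2 was not tested.

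Each line had genes in which it stood at least 2-fold above or below all of the other 3. The unaltered line was above for 48 genes (0.38%) and below for 21 (0.166%). CT clone 1 was above for 47 (0.372%) and below for 51 (0.404%), CT clone 2 was above for 28 (0.222%) and below for 58 (0.459%), and CT clone 3 was above for 45 (0.356%) and below for 96 (0.76%). The unaltered line thus had more genes above than below, and CT clones 2 and 3 had fewer above than below. This contrast depended on low genes and on the scaling. At a mean of at least 5 CPM the unaltered line was above for 3 genes and below for 4, CT clone 1 for 10 and 19, CT clone 2 for 4 and 13 and CT clone 3 for 9 and 25, and with quantile normalization the unaltered line was above for 40 genes and below for 46.

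Among the 293 wide-range genes the unaltered line was the lowest for 22 (7.51%), against 73 for CT clone 1, 102 for CT clone 2 and 96 for CT clone 3. It was the highest for 76, against 84, 64 and 69. Over all genes tested the unaltered line was the lowest for 25.2%. Its lowest value, 0.0624 CPM, is the highest floor of the 4 libraries, and its part in this count was examined by subtracting from each library its lowest value, which left the unaltered line lowest for 33 of 308 wide-range genes and CT clones 1 to 3 for 70, 107 and 98.

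Ebf1, Nav3 and Eda2r were the genes reaching 5 CPM in a line in which the unaltered line lay farthest below the clones. Ebf1, a transcription factor, stood at 1.93 CPM in the unaltered line and at 10.6, 7.96 and 13.3 CPM across CT clones 1 to 3. Nav3, a neuron navigator protein, stood at 0.873 CPM and at 3.09, 2.83 and 5.33 CPM. Eda2r, the ectodysplasin A2 receptor, stood at 13.5 CPM and at 46.6, 32.7 and 45.7 CPM, with a range of 1.78 that is under the limit. Sema5a, an axon guidance semaphorin, was at 0.125 CPM in the unaltered line and at 2.49, 2.79 and 2.34 CPM in the clones.

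**Figure D3:**
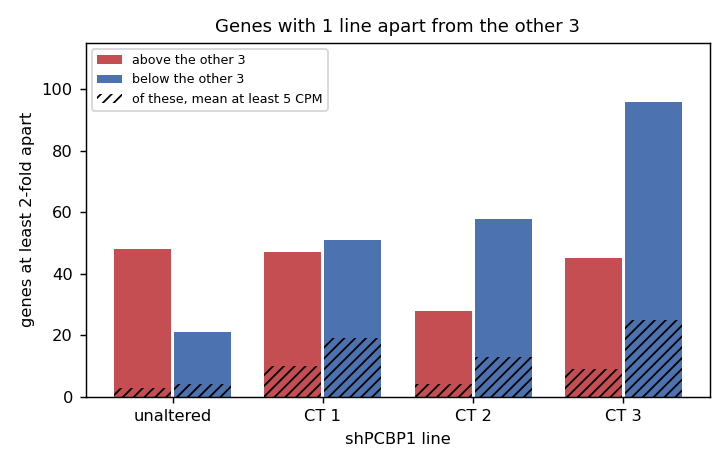
Number of genes in which 1 shPCBP1 line lay at least 2-fold above (red) or below (blue) all of the other 3 lines, with the part of each bar at a mean of at least 5 CPM hatched. The unaltered line has 48 genes above and 21 below, and CT clone 3 has 45 above and 96 below.

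Lines also differed along whole chromosomes, by amounts far under 2-fold. Differences were taken as the median over genes of a line minus the mean of the other 3 lines, centred on the median of all genes. On chromosome 15, CT clone 1 lay -0.17 (log2) from the others over 501 genes, a ratio of 0.889, and 14.2% of the genes were above the centre. All 8 windows of 10 Mb on that chromosome were below 0, from -0.22 to -0.08. On chromosome 17, CT clone 3 lay 0.14 above over 637 genes, a ratio of 1.10, with 9 of 9 windows above 0, and on chromosome 19 it lay 0.10 above over 472 genes, with 6 of 6 windows above 0. After a correction of each library for GC content these values were -0.16, 0.15 and 0.11. Of the other pairs of a line and a chromosome, CT clone 2 on chromosome 15 came next, with 0.10. CT clone 3 and the unaltered line were at 0.0426 and 0.0360 there. Each value is taken against the other lines, so the low CT clone 1 raises all of these. The value of CT clone 2 is therefore not read as a separate shift.

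In 4 of 229 windows with at least 15 genes a line lay 0.25 or more from the others. The window at 120 to 130 Mb of chromosome 10 was higher in CT clone 2 by 0.47 (a ratio of 1.38), and CT clone 2 was the highest line for 63 of its 99 genes. The window at 150 to 160 Mb of chromosome 4 was higher in the unaltered line by 0.38 (1.30), with the unaltered line highest for 58 of 71 genes. At 80 to 90 Mb and 90 to 100 Mb of chromosome 8 the unaltered line was lower by ratios of 0.832 and 0.83, and it was the lowest line for 65 of 89 and 35 of 46 genes. Over all genes tested, CT clone 2 was the highest line for 17.9%, and the unaltered line was the highest for 19.7% and the lowest for 25.2%. These windows held 7 wide-range genes in all. They were 0 of 71 on chromosome 4, 5 of 89 and 1 of 46 on chromosome 8 and 1 of 99 on chromosome 10. Of all genes, 2.32% were wide-range, and no concentration in these windows is read from the counts.

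The windows that set the unaltered line apart also set knockout clones apart. Against the mean of the CT clones, the window of chromosome 4 differed by 0.97, 0.99 and 0.93 in FAM3C KO clones 1 to 3, by 0.03, -0.33 and 0.50 in LIFR KO clones 1 to 3 and by 0.60 in the double KO. The window at 80 to 90 Mb of chromosome 8 differed by -0.56, -0.57 and -0.55 in the FAM3C KO clones, by 0.02, -0.20 and -0.81 in LIFR KO clones 1 to 3 and by -0.89 in the double KO. The unaltered line therefore lay between the CT clones and the FAM3C KO clones in both windows, and LIFR KO clone 1 lay with the CT clones. The values of LIFR KO clones 2 and 3 and the double KO are those of the libraries with high mitochondrial shares, whose part in them was not tested.

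**Figure D4:**
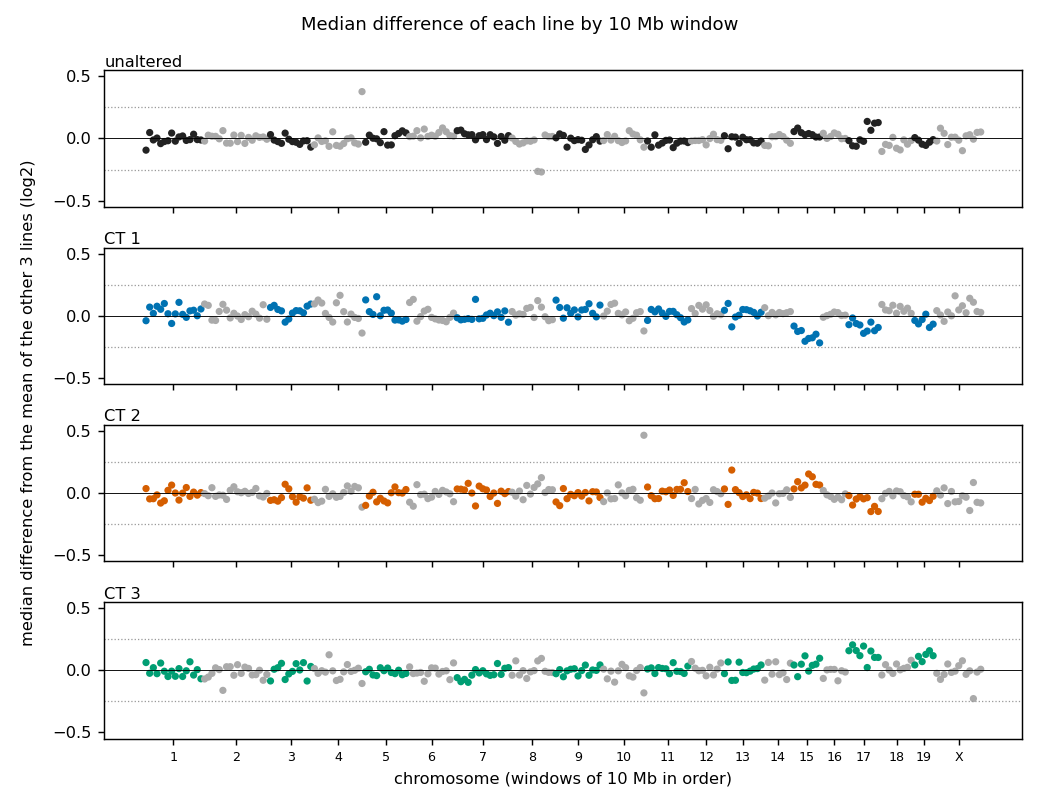
Median difference in log2 of each shPCBP1 line from the mean of the other 3 lines in windows of 10 Mb, in order along chromosomes 1 to 19 and X, with dotted lines at 0.25 and -0.25 and colours changing between chromosomes. The windows of CT clone 1 on chromosome 15 lie below 0 as a group, and single windows stand out on chromosomes 4 and 8 in the unaltered line and on chromosome 10 in CT clone 2.

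Wide-range genes were a larger share of the X chromosome, 21 of 392 genes (5.36%), than of the autosomes, 272 of 12214 (2.23%). At a mean of at least 5 CPM the counts were 4 of 292 and 59 of 9817. Over all 293 wide-range genes the unaltered line was the lowest for only 7.51%, so its low count on the X is not particular to that chromosome. Of the 21 X-linked genes the unaltered line was the lowest for 0, CT clone 1 for 7, CT clone 2 for 8 and CT clone 3 for 6. Rps6ka6, an X-linked ribosomal S6 kinase, stood at 2.62, 8.12, 0.242 and 2.61 CPM in the same order of lines, and Dlg3, a synaptic scaffold protein, at 1.56, 0.469, 6.30 and 1.34 CPM. Zfp449 stood at 0.515 CPM in CT clone 3 and at 4.43 to 6.71 CPM in the other lines. Next to each other on a chromosome, 54 pairs of wide-range genes started within 1 Mb, and 13 pairs (24.1%) had the same highest and the same lowest line. Among pairs of wide-range genes on different chromosomes 9.96% did. Olfr845, Olfr846, Olfr847 and Olfr849, olfactory receptors of a cluster on chromosome 9, and the overlapping pairs Syn3 with Timp3 and Cyfip2 with Fndc9 made 5 of the 13, and their reads could not be told apart with certainty.

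Gene lists differed in their range and in their level, and over all genes the range followed the level. The housekeeping groups had medians of 0.20 for 20 mitotic genes, 0.21 for 77 cytosolic ribosomal proteins, 0.23 for 31 proteasome subunits and 0.26 for 13 mitochondrially encoded genes, and 0 wide-range members in each. They are highly expressed, with median levels of 82.1 to 1491 CPM, and all genes at 20 CPM and over had a median range of 0.24 and 0.11% wide-range, so these lists were near the background for their level. Epithelial adhesion (17 genes), mesenchymal genes (15), keratins (10), p53 targets (24), antigen presentation (11), S100 proteins (12), cholesterol synthesis (24), immediate early genes (24) and G1 cyclins and inhibitors (20) also had 0, with medians of 0.30 to 0.57. The markers of luminal (7 genes), basal (7), fibroblast (2), endothelial (2), immune (2) and adipocyte (1) cells had 0 as well. The median of all genes was 0.29. Some of these lists lay above the 0.24 of all genes at 20 CPM and over, with median levels that were also over 20 CPM. Mesenchymal genes had 0.48 at a median of 165 CPM, immediate early genes 0.49 at 47.2 CPM and epithelial adhesion 0.40 at 46.0 CPM. Cholesterol synthesis had 0.40 at 39.4 CPM and p53 targets 0.30 at 48.0 CPM. Each of these lists also holds members at lower levels.

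Hox genes, which keep the positional identity of a cell, had the highest median of the lists with at least 10 genes tested, 0.92, and 4 of 24 (16.7%) were wide-range against 2.32% of all genes. Besides Hoxa7, Hoxd4 stood at 0.624, 0.0213, 0.283 and 1.61 CPM in the unaltered line and CT clones 1 to 3, Hoxb9 at 1.5, 6.72, 1.21 and 2.61 CPM and Hoxc4 at 1.5, 5.01, 0.970 and 1.61 CPM. CT clone 1 was the lowest line for Hoxa7 and Hoxd4 and the highest for Hoxb9 and Hoxc4. The median level of the list was 4.57 CPM, and 9.19% of all genes under 5 CPM were wide-range. At 5 CPM and over, 1 of 12 Hox genes was.

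In the axon guidance list 6 of 51 genes (11.8%) were wide-range against 2.32% of all genes, with a median range of 0.57. Of its members at 5 CPM and over, 3 of 34 were, against 0.622% of all genes at that level. Besides Robo1 and Sema5a these were Epha5, an ephrin receptor, at 2.31, 8.57, 0.808 and 1.10 CPM, Sema6a at 7.05, 1.32, 13.2 and 4.57 CPM, Slit2, a ligand of Robo receptors, at 4.68, 15, 2.14 and 2.95 CPM, and Sema3b at 3.62, 8.10, 2.51 and 1.92 CPM. CT clone 1 was the highest line for Epha5, Slit2 and Sema3b.

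Of the Wnt pathway, 2 of 25 genes (8%) were wide-range against 2.32% of all genes, and 0 of its 17 members at 5 CPM and over were. Wnt5a, a non-canonical ligand, was at 3.71 CPM in CT clone 3 and at 0.125, 0.0853 and 0.0808 CPM in the unaltered line and CT clones 1 and 2, and Lef1, a transcription factor of the pathway, was at 0.324 CPM in CT clone 2 and at 1.83 to 3.51 CPM elsewhere. Of the TGF-beta and BMP pathway, 2 of 37 (5.41%) were wide-range, with 1 of 29 at 5 CPM and over. Bmp7, a ligand, stood at 28 CPM in CT clone 3 and at 7.42, 4.80 and 3.43 CPM in the other lines, and Smad9, a BMP effector, at 5.53 CPM in CT clone 3 and at 1.12, 2.49 and 1.33 CPM. Bmp7, Smad9, Wnt5a and Lef1 were thus each highest in CT clone 3. That clone was the highest line for 43.1% of all genes tested and for 23.5% of the wide-range genes, so nothing particular to these pathways is read from it.

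Of the metalloproteinases and their inhibitors 3 of 21 (14.3%) were wide-range, of the collagens 2 of 21 (9.52%), of the serpins 3 of 15 (20%), of the protocadherins 2 of 30 (6.67%) and of the detoxification enzymes 4 of 57 (7.02%), all above the 2.32% of all genes. Their median levels were 1.55 to 7.17 CPM, and 9.19% of all genes under 5 CPM were wide-range. At 5 CPM and over, where 0.622% of all genes were, the counts were 1 of 11, 2 of 10, 0 of 6, 0 of 5 and 0 of 35. Timp3, a metalloproteinase inhibitor, stood at 2.18, 1.36, 8.54 and 0.708 CPM, and Mmp13, a collagenase, at 1.56, 5.03, 1.33 and 6.18 CPM. Col12a1, a fibril-associated collagen, stood at 33.3, 19, 6.51 and 7.42 CPM. Serpinb7 and Serpinb11, neighbours on chromosome 1, were both at 0.103 CPM in CT clone 3 and at 0.525 to 1.88 CPM in the other lines. The interferon response list had 1 of 24 (Oasl1), the chemokine and cytokine list 1 of 31 (Il11) and the list of transcription factors of epithelial-mesenchymal transition 1 of 13 (Twist1).

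Imprinted genes are expressed from the allele of 1 parent, and 2 of 15 (13.3%) were wide-range. Both were under a mean of 5 CPM, where 9.19% of all genes were wide-range, and 0 of the 8 members at 5 CPM and over were. Snrpn, a spliceosome protein expressed from the paternal allele (ENSMUSG00000102252, chromosome 7, 59982495 to 60140219), stood at 2.73 CPM in the unaltered line and at 0.0213, 0.0404 and 0.0344 CPM across the CT clones, the values for no reads. The 3 FAM3C KO clones had 2.97 to 3.82 CPM and LIFR KO clone 3 had 3.23 CPM, while LIFR KO clones 1 and 2 were at 0.0536 and 0.0416 CPM. It overlaps another annotated gene, so its reads are uncertain. Igf2, a growth factor, stood at 3.31 CPM in the unaltered line and at 0.731, 0.579 and 1.45 CPM in the clones.

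**Figure D5:**
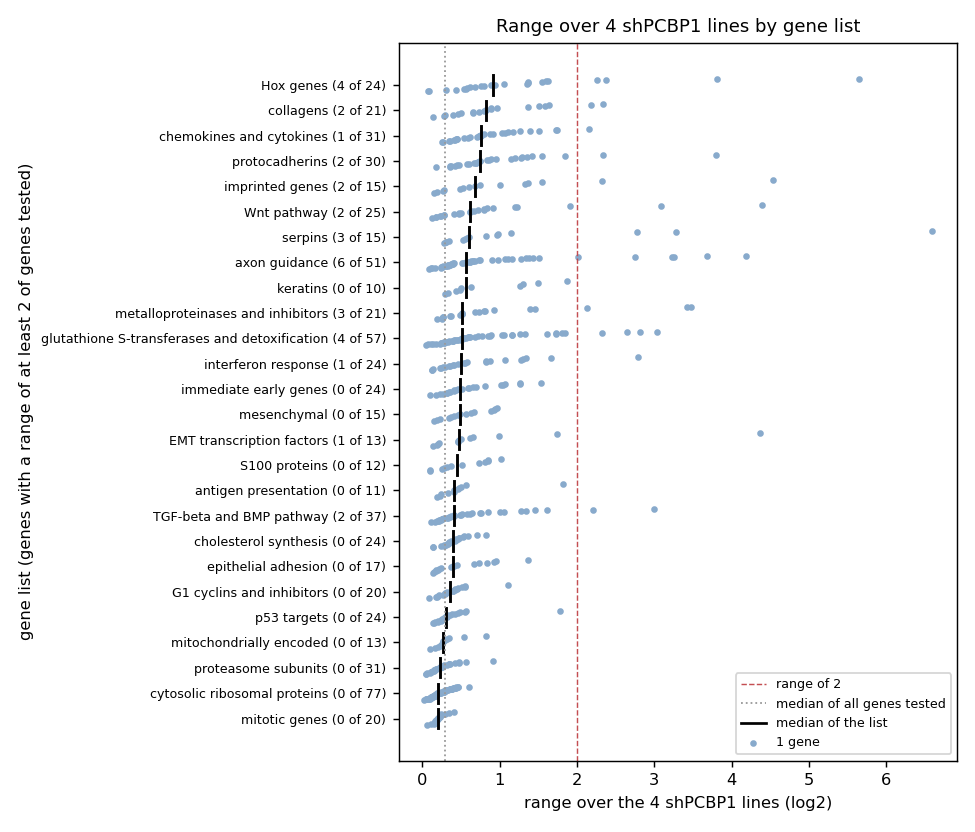
Range over the 4 shPCBP1 lines in log2 for each gene (points) of the lists with at least 10 genes tested, with the median of each list (black bar), the median of all genes (dotted line) and the limit of 2 (dashed line). Hox genes have the highest median, 0.92, and mitotic genes the lowest, 0.20.

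The 11 genes on which the study centres had a median range of 0.38, against 0.29 for all genes and 0.24 for all genes at 20 CPM and over. Of these 11 genes, 2 (18.2%) were wide-range, against 2.32% of all genes. At a mean of at least 5 CPM, 1 of 10 was, against 0.622% of all genes at that level. With so few genes, nothing is read from these counts. Lifr, the receptor for leukemia inhibitory factor, stood at 28.4 CPM in the unaltered line and at 25.8, 34.8 and 40.2 CPM across CT clones 1 to 3, a range of 0.64. Fam3c stood at 53.3, 54.9, 47.0 and 59.4 CPM, Stat3 at 63.7, 62.6, 68.5 and 64.3 CPM and Il6st, the shared signalling subunit of the receptor, at 114, 118, 115 and 124 CPM, with ranges of 0.34, 0.13 and 0.12. Twist2 had a range of 0.50, Lif 0.42, Socs3 0.38 and Myc 0.23.

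Twist1 and Mmp2 were the wide-range ones. Twist1, a transcription factor of epithelial-mesenchymal transition (ENSMUSG00000035799, chromosome 12, 33957671 to 33959829), stood at 3.62 CPM in the unaltered line, 1.41 CPM in CT clone 1, 0.0808 CPM in CT clone 2 and 0.172 CPM in CT clone 3. The unaltered line and CT clone 1 were thus above CT clones 2 and 3, and all 6 knockout clones were at 0.0384 to 0.0536 CPM. Mmp2, a gelatinase, stood at 3.62, 1.07, 5.54 and 12.8 CPM in that order, and at or below 0.686 CPM in the knockout clones. The Twist1 values of CT clone 2 and of the knockout clones were too low to be told from 0.

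The study's list of genes changed in its comparisons, 490 genes chosen on these samples and so not independent of them, also held wide-range genes. Of its 364 members tested, 77 (21.2%) were wide-range and 198 (54.4%) had a range of at least 1, with a median of 1.09. By level, 14 of 149 members (9.40%) were wide-range at a mean of at least 5 CPM, where 0.622% of all genes were, and 63 of 215 (29.3%) under 5 CPM, where 9.19% were.

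Genes that varied among the 4 lines often varied within a knockout group as well. A range of at least 2 over the 3 FAM3C KO clones was seen for 83 of the 293 wide-range genes (28.3%) and for 1.86% of all genes. Over the 3 LIFR KO clones it was seen for 131 (44.7%) and for 3.85% of all genes. At a mean of at least 5 CPM, where counting error is smaller, 26 of 63 (41.3%) and 25 of 63 (39.7%) passed, against 0.858% and 1.85% of genes at that level. Klhl13 and Clmn are examples, with FAM3C KO clone 2 at 3.4 CPM for Klhl13 where clones 1 and 3 had 45.6 and 55.7 CPM, and at 0.680 CPM for Clmn where they had 9.26 and 35.8 CPM.

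The second dataset, whose samples had no part in choosing the genes, was used to ask how the same genes differ between shPCBP1 and shSCR cells. Its values were scaled apart from the first dataset, and nothing states that its replicates came from separate cultures, so their spread may be technical. With limma on log2(CPM + 0.1), a gene was called at a Benjamini-Hochberg adjusted p under 0.07 and a change of at least 1.5-fold, which 1823 of 11384 genes (16%) met as higher in shPCBP1 and 1720 (15.1%) as lower. Of the 158 wide-range genes tested there, 74 (46.8%) were higher and 56 (35.4%) lower. Their median absolute log2 difference was 2.29, against 0.36 for all genes. At a mean of at least 5 CPM in the 4 lines, 31 of 53 were higher and 13 lower, where 15.4% and 11.6% of all genes at that level were, and under 5 CPM 43 and 43 of 105, where 22% and 37% were. The split depended on the filter in the second dataset itself. With a mean of at least 5 CPM required there, 9 wide-range genes were higher and 21 lower, and with no filter 157 were higher and 60 lower. These counts were not set beside the shares of all genes under the same filter, so no excess or reversal is read from them. A gene near 0 in 1 group can pass a filter through the other group alone, so the filter itself shapes both counts. At 5 CPM and over in the 4 lines both shares were thus above those of all genes, and under 5 CPM the lower share was near that of all genes.

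Serpinh1, held only by the unaltered line in the first dataset, stood at 0.0355 and 0.0944 CPM in the 2 shSCR replicates and at 56.6 and 61.2 CPM in the shPCBP1 replicates (log2 difference 8.50 ± 0.16 (SE), adjusted p = 5.63e-12 from limma). Smoc1 stood at 0.159 and 0.113 CPM in shSCR and 19.4 and 19.6 CPM in shPCBP1 (6.38 ± 0.13 (SE), adjusted p = 1.43e-11 from limma). The level of Smoc1 in CT clone 1 was thus low like that of shSCR cells, though the scales differ. Ddr2 was also higher in shPCBP1, by 2.37 ± 0.08 (SE, adjusted p = 3.46e-10 from limma).

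Tenm4, low in CT clone 3, stood at 85.1 and 88.1 CPM in shSCR and 8.19 and 7.45 CPM in shPCBP1 (-3.45 ± 0.05 (SE), adjusted p = 1.21e-12 from limma). Robo1, the other gene low in CT clone 3, was lower in shPCBP1 too (-1.53 ± 0.07 (SE), adjusted p = 7.41e-09 from limma), as was Arhgap32, with 5.36 and 5 CPM in shSCR and 0.179 and 0.129 CPM in shPCBP1 (adjusted p = 7.64e-10 from limma). Scara3 differed by 0.18 ± 0.07 (SE, adjusted p = 0.0353 from limma), under 1.5-fold, and was not called. Twist1 was listed at 0.0001 CPM, the entry for no reads, in both shSCR replicates and at 0.323 and 0.333 CPM in shPCBP1, a mean under the filter, so it was not tested there.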

How the data were processed

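RNA-Seq values of 15 samples in 2 datasets were analysed. The study describes libraries made after depletion of ribosomal RNA. The authors aligned paired-end reads of 150 bp with Bowtie2 to GRCm38 in Partek Flow and ran DESeq2. Their deposited values are CPM, in which a gene without reads has a small positive entry. The deposited table of the second dataset also has columns of the authors' mean CPM by group and their ratio, or fold, and these were not used. No count test was run, because the CPM of some genes did not turn into whole reads.

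The 4 lines were compared on log2(CPM + 0.1), a scale that understates changes of low genes, without a test, since each line is 1 library. Genes of the first dataset had starts equal to GENCODE M21 (GRCm38) for only 275 of the 12620 matched by gene ID, so positions were taken from M21. For the second dataset, a limma fit (version 3.58.1, R 4.3.3) allowed the variance to follow the mean and took genes of 0.5 CPM or more on average. Other values and figures came from Python 3.11.15, pandas 2.3.3, statsmodels 0.14.6 and matplotlib 3.10.9. The procedures were tested on simulated data.

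Members, lists and tests were chosen with earlier results of these data known. Genes were named as the 20 with the widest range among those reaching 5 CPM in a line, the 3 farthest above and below for each line, the study's genes, and up to 3 wide-range members of each list or its widest member; predicted genes were left out. Other genes named by count were chosen after their values were seen. Alternatives were another pseudocount (1 CPM), other filters, median-ratio and quantile scaling, a 2-fold limit, the replicate number as a block and leaving out each sample; subtraction of the lowest value and a GC correction (lowess, span 0.3) were chosen after seeing the data. A comparison of promoter CG content between wide-range and all genes was void, because only 73.7% and 79.3% of them had a window in the RefSeq table.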

Additional observations from a re-analysis of the deposited data

Results flagged for a closer look

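Among the 84 named genes, 20 had 1 of the 4 lines farther from its nearest neighbour than Dixon's limit for 4 values allows. The value given is the gap to the nearest line as a part of the whole range in log2. Chance sets about 1 in 20 groups apart in this way, and many of these genes were named for their range or for such a gap, so the number is no test.

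The unaltered line was the high one for Snrpn (0.954), Lrrc32 (0.895) and Serpinh1 (0.853) and the low one for Sema5a (0.933). CT clone 1 was high for Luzp2 (0.950) and low for Scara3 (0.951), Smoc1 (0.930), Hoxa7 (0.906) and Grhl2 (0.864). CT clone 2 was low for Foxa1 (0.864), Lif (0.848) and Tmcc2 (0.837). CT clone 3 was high for Wnt5a (0.929) and Gprin3 (0.893) and low for mt-Atp8 (0.949), Myc (0.937), Robo1 (0.910), Tenm4 (0.895), Cenpf (0.868) and Zfp449 (0.830).

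For 6 of the 20 the whole range was under the limit of 2. Foxa1, a luminal pioneer factor, stood at 4.18 CPM in the unaltered line and at 4.05, 1.29 and 3.57 CPM across CT clones 1 to 3. Grhl2, an epithelial transcription factor, stood at 0.873, 0.277, 0.768 and 0.756 CPM. In CT clone 3 the mitochondrially encoded mt-Atp8 was at 115 CPM against 199 to 205 CPM in the other lines, the kinetochore gene Cenpf at 237 CPM against 303 to 314 CPM and Myc at 132 CPM against 152 to 154 CPM. Lif, the ligand of LIFR, was at 42.7 CPM in CT clone 2 against 54.7 to 57.1 CPM. Smaller gaps of this kind in a single library were not tested.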

How the results depend on the processing

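The count of wide-range genes depended most on how low values were treated. It was 293, and it was 113 with a pseudocount of 1 CPM and 63 at a mean of at least 5 CPM, while no filter, both scalings, subtraction of the lowest value and the GC correction gave 289 to 406. All 113 and all 63 were among the 293. Leaving out 1 line gave 180 to 242, with 180 without CT clone 3, and a median range of 0.21 to 0.25.

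Genes above and below the other lines were 22 and 5 for the unaltered line, 28 and 16 for CT clone 1, 15 and 22 for CT clone 2 and 21 and 35 for CT clone 3 with a pseudocount of 1 CPM. At a mean of at least 5 CPM they were 3 and 4, 10 and 19, 4 and 13, and 9 and 25. With no filter the unaltered line had 83 above and 38 below, and CT clones 1, 2 and 3 had 79, 47 and 83 above. Quantile normalization gave 46 below for the unaltered line, and the cause was not tested. Leaving out a line compares with 2 lines in place of 3, and gave 83 to 96 above and 36 to 58 below for the unaltered line, 59 to 77 and 69 to 103 for CT clone 1, 43 to 83 and 95 to 96 for CT clone 2, and 66 to 91 and 115 to 160 for CT clone 3.

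In the second dataset, 9 wide-range genes were higher and 21 lower when a mean of at least 5 CPM was required there, and 157 were higher with no filter. Shares of all genes under these filters were not set beside these counts. Leaving out a sample, which assumes that the lone sample varies like the other group, gave 58 to 89 higher and 52 to 59 lower. With the replicate number as a block, 74 were higher and 57 lower. The replicates shared only a number, since the difference between replicates 1 and 2 correlated by 0.0512 across genes between the groups.

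Of the 84 named genes, the range moved by more than its SD over the lines for 22 with a pseudocount of 1 CPM, 1 with median-ratio scaling, 3 with quantile normalization and 13 to 18 with a line left out. Depth limits the low genes, since 3 reads were worth up to 0.187 CPM.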
